A study of Mus musculus with 2 samples.

Results

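The cells described here are tumor cells of a mouse glioblastoma model that were selected on high levels of genes of the G2 phase and mitosis. A tumor cell counted as a member when at least 4 of the 5 genes Hmmr, Aspm, Cenpf, Ube2c and Kifc1 each had 3 or more unique molecular identifiers (UMIs, each a tag of 1 captured molecule, in this assay a probe product). Tumor cells were barcodes past the quality limits with at least 3 UMIs of Olig1 and Olig2 together, at most 3 UMIs of C1qa, C1qb and C1qc together, and at least 1/3 of the median UMI count of their matrix. No copy number call was used here, although the paper made one. Host cells that pass these limits were therefore not told apart from tumor cells, and tumor cells below the Olig limit were left out. Of 56943 barcodes, 54574 passed the quality limits, 31763 were tumor cells and 8755 were members, which is 27.6% of the tumor cells. The remaining tumor cells were split into 6120 S-phase cells, which had at least 4 of Mcm3, Mcm5, Mcm6, Uhrf1 and Clspn at 3 or more UMIs, and 16888 other tumor cells.

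All tumors came from mGSC, a line of mouse glioblastoma stem cells with the genotype Trp53+/- and Nf1+/-, grown in the brains of C57BL/6J mice. The animals received either vehicle or Xevinapant every day for a week by oral gavage, and cells were taken right after treatment. Xevinapant is a SMAC mimetic, a small molecule that binds inhibitor of apoptosis proteins (IAPs). The design names 4 tumors per group, and 4 matrices of UMI counts were given for each group. The line is 1 culture, and the study's methods describe the mice as young females. The label of one group names total RNA and that of the other polyA RNA, and each group was its own pool with its own batch date, so pool, date and treatment cannot be told apart. File names of the Xevinapant group say vehicle; its sample record, which was followed, says Xevinapant.

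Between DNA replication and division a cell passes through G2, in which cyclin A and cyclin B activate the kinase Cdk1. Nuclear breakdown, chromosome condensation and assembly of the spindle follow. The spindle checkpoint holds the anaphase-promoting complex (APC/C) back until all kinetochores are attached, and cytokinesis then splits the cell. Many genes that act here are transcribed late in the cycle from promoters that carry a cell cycle homology region (CHR) close to the transcription start, together with CCAAT boxes bound by NF-Y. The DREAM complex represses such promoters in resting cells, and B-Myb and FoxM1 complexes activate them in G2. In glioblastoma, dividing cells have been found in several of the malignant cell states, most often in those that resemble neural and oligodendrocyte progenitors.

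Promoter sequence of 4 of the 5 rule markers and of 2 mitotic entry genes is shown first, because the genes that led in these cells shared a sequence feature there. The windows were taken from RefSeq promoters on GRCm38.p6 and run 5′ to 3′ on the strand of the gene, from 90 bases before the start of transcription to the start or, where the match lay past it, to the end of the match. Capitals mark the CHR letters TTTGAA or TTCGAA on either strand and CCAAT on either strand, and none of the matches overlapped. These are the 6 genes, among the rule markers and a short set of mitotic genes, whose CHR match lay nearest to the start. Each match is a run of letters and not a measured binding site.
Kifc1, chr17:33890627-33890723, minus strand: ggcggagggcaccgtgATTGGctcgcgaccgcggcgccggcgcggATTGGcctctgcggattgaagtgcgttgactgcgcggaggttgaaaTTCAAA
Cenpf, chr1:189688079-189688176, minus strand: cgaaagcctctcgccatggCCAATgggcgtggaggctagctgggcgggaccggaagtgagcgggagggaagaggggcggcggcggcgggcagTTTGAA
Ccnb2, chr9:70421545-70421644, minus strand: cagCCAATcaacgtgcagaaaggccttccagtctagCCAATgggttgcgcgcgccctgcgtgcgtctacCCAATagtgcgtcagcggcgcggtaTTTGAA
Aspm, chr1:139454683-139454784, plus strand: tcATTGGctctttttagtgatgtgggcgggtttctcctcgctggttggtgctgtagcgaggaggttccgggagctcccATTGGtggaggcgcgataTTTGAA
Hmmr, chr11:40733424-40733527, minus strand: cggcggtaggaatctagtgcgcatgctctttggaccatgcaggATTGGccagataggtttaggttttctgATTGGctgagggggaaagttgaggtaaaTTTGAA
Cdk1, chr10:69352913-69353002, minus strand: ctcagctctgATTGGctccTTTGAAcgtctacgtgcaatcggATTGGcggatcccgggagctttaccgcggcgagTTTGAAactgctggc

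In Kifc1 the match began at base 2 of the transcript, in Cenpf at base 3, in Ccnb2 at base 5, in Aspm at base 7 and in Hmmr at base 9. In Cdk1 the nearer of 2 matches began 15 bases before the start. All 5 rule markers had a CHR match and a CCAAT match in the full 300-base window, which runs from 250 bases before the start to 50 bases after it. Birc5 had neither in its window.

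The same letters were common among the genes that led in the members. Of the 100 genes with the highest ratio of members to other tumor cells, 79 had a RefSeq promoter, with 88 windows in all. A CHR match was present in 62 of these windows (70.5%), against 3033 of 18366 windows of all genes in the files (16.5%). Within 50 bases of the start the shares were 59.1% and 4.21%. CCAAT was present in 71.6% of the windows of the leading genes and in 37.5% of all windows. Of the 37 genes of DNA replication, which act in S phase, 29 had a RefSeq promoter, with 34 windows. Of these windows 23.5% held a CHR match and 20.6% held an E2F match (TTTGGCGC or TTTCGCGC on either strand), against 1.11% of all windows for E2F. The E2F letters were found in 4.55% of the windows of the 100 leading genes. The leading genes were chosen by their measured ratio, so these shares are a description without a test.

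**Figure D1:**
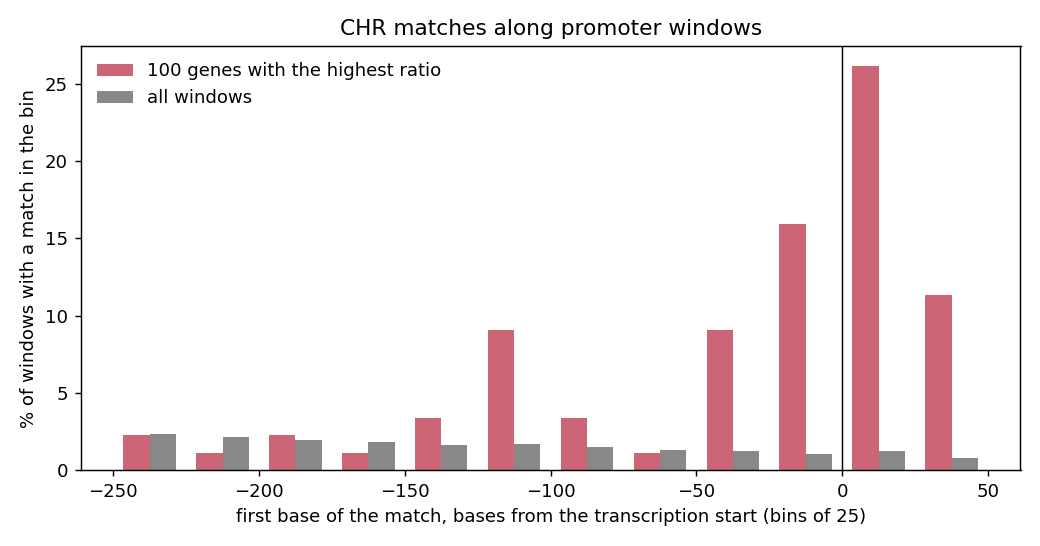
Percent of promoter windows with a CHR match (vertical axis) by distance of the match from the transcription start in bins of 25 bases (horizontal axis, 0 is the start), for 88 windows of the 100 genes with the highest ratio and for 18366 windows of all genes. The bin just past the start holds a match in 26.1% of the windows of the leading genes and in 1.23% of all windows.

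The depth of these cells was higher than that of the rest. Median UMIs per member lay between 27020 and 39624 in the 8 matrices, against 10810 to 16351 in the other tumor cells, a ratio of 2.39 to 2.69. The limit of 3 UMIs per gene lets deep cells in more easily. After tumor cells of 5000 or more UMIs were thinned to that number and chosen by 1 or more UMI in at least 4 markers, the chosen cells still held 1.29 to 1.46 times the original UMIs of those not chosen. Median mitochondrial shares were low in both, at 0.613% to 0.974% of UMIs in the members and 0.619% to 1.10% in the other tumor cells.

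Within the rule, 6531 members had all 5 genes at 3 or more UMIs and 2224 had 4 of them. Ube2c, which feeds ubiquitin to the APC/C, was the gene missing in only 26 of those 2224 cells, whereas the kinetochore protein gene Cenpf was missing in 718 and Aspm, which shapes the spindle poles, in 623. Just outside the limit stood 2092 tumor cells with 3 genes, and their summed Ube2c level was 407 CPM (UMI counts scaled to a total of 1000000), against 593 CPM in cells with 4 genes and 1266 CPM in cells with all 5. Many cells stood near the limit. In 1384 members the fourth highest marker stood at exactly 3 UMIs, and in 1986 tumor cells outside the members it stood 1 UMI below that. The remaining markers were not part of these counts, so they do not show for how many cells a single UMI decided.

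Genes that the rule did not use were checked for the label. CPM here are summed over the cells of a sample, and fold values are means over 5 samples of the ratio of members to other tumor cells, with 1 CPM added. The 3 closest pairs of matrices were joined, by the median over genes of a chi-square (a squared deviation scaled by counting error). It was 1.93 within vehicle 1 and 3, 5.22 within Xevinapant 1 and 2, and 5.37 within Xevinapant 3 and 4. In the 9 other pairs of a group it was 13.5 to 42.5. The joined pairs were thus the most alike, and it is not known whether a pair came from 1 tumor. This left 3 vehicle and 2 Xevinapant samples.

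Plk1, the kinase that drives mitotic entry and spindle assembly, stood at 430, 436 and 383 CPM in the members of the vehicle samples and at 333 and 368 CPM in those of the Xevinapant samples. In the other tumor cells Plk1 stood at 59.5, 69.1, 68.3, 27.1 and 45.2 CPM in the same order. Every sample thus had a higher level in the members, by 2.90 ± 0.42 on the log2 scale (mean and SD, n = 5). Top2a, the topoisomerase that untangles sister chromatids, was at 1603, 1473, 1397, 1659 and 1397 CPM in the members and at 301, 309, 291, 177 and 215 CPM in the other tumor cells. Mki67, which coats mitotic chromosomes, was 2.38 ± 0.52 higher and Cdk1 2.54 ± 0.39 higher. Cdc20, the activator of the APC/C, was 2.73 ± 0.39 higher, Aurka, the kinase of the spindle poles, 2.80 ± 0.33, and Birc5, the survivin gene, 2.27 ± 0.38. All 7 of these genes were higher in the members in 5 of 5 samples.

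Against the S-phase cells the same genes were higher too, by 2.52 ± 0.13 for Plk1, 2.34 ± 0.14 for Cdc20, 1.49 ± 0.07 for Top2a and 1.45 ± 0.12 for Mki67. These 2 classes were cut on mitotic and S-phase markers, so contrasts of cell cycle genes between them are a description without a test. DNA replication genes went the other way. Of 37 such genes, 1 was higher in the members than in the S-phase cells, and the median log2 ratio was -0.43, while against the other tumor cells it was 1.08 and all 37 were higher in 5 of 5 samples. That median of 1.08 was 0.65 when the cells were split after thinning to 5000 UMIs. Pcna, the sliding clamp of the replication fork, was at 392 CPM in the members of the vehicle 4 sample and at 248 CPM in the other tumor cells of that sample. Many members still carried S-phase RNA: 5502 of 8755 (62.8%) also had at least 4 of the 5 S-phase markers at 3 or more UMIs. Of the tumor cells outside the members, 6120 passed that limit and 16888 did not. The label therefore covers cells that still hold much S-phase RNA. Depth, which was higher in the members, and free RNA, which can add UMIs to any cell, were not tested for their part in the count of 5502.

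Among 6047 genes of at least 50 CPM in members or other tumor cells, 248 were higher by 1 or more on the log2 scale in the members and 87 lower by 1 or more, with a median of 0.00 over all of them. The 20 highest included 4 of the 5 rule markers. The highest was Pif1, a DNA helicase, at 3.29 ± 0.50, followed by Arhgef39, a guanine nucleotide exchange factor, at 3.09 ± 0.55. Pif1 stood at 90.8, 80.1 and 84.6 CPM in the vehicle samples' members and at 104 and 94.6 CPM in the Xevinapant samples' members, with 5.11 to 10.8 CPM in the other tumor cells. It was also low in the S-phase cells, at a mean of 5.69 CPM. Members and S-phase cells differed more in Pif1 than members and other tumor cells did, with 3.78 ± 0.18 on the log2 scale.

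Nek2, a kinase that separates centrosomes, was 2.97 ± 0.49 higher, and Prc1, which bundles the microtubules of the central spindle, 2.95 ± 0.42. Nusap1, a microtubule binder near chromosomes, was 2.83 ± 0.40 higher. The kinesins Kif14, Kif2c and Kif20a were 2.81 ± 0.48, 2.72 ± 0.46 and 2.64 ± 0.46 higher. Psrc1 and Troap, which act with spindle microtubules, were 2.73 ± 0.38 and 2.77 ± 0.42 higher, and Ccnf, an F-box protein of the late cycle, 2.76 ± 0.43. Neurl1b, a ubiquitin ligase gene, was 2.83 ± 0.36 higher, and Pimreg 2.68 ± 0.43. Arhgef39, Neurl1b, Troap, Ccnf, Pimreg and Pif1 were in none of the lists used here.

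The lists of division genes were ordered by their median ratio of members to other tumor cells. Cytokinesis genes led, with a median log2 ratio of 2.41 and all 8 at 1 or more, among them Anln (2.29 ± 0.41) and Ect2 (2.37 ± 0.43), which build and position the contractile ring. Spindle genes followed at 2.32, with 19 of 20 at 1 or more, and the chromosomal passenger and cohesion protector genes at 2.31, with 6 of 6. In the passenger complex, Aurkb, its kinase, was 2.58 ± 0.44 higher, and the scaffold Incenp 2.23 ± 0.39. The 14 measured mitotic entry genes had a median of 2.0 and all stood at 1 or more. Condensation genes had a median of 1.80, with 9 of 10 at 1 or more, and Smc4, a core subunit of condensin, was 1.77 ± 0.33 higher. Kinetochore genes and checkpoint genes both had a median of 1.63, with 22 of 28 and 8 of 10 at 1 or more.

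The APC/C list had a median of 0.38, and 5 of 17 genes stood at 1 or more: the activators Cdc20 and Fzr1 (2.84-fold), the ubiquitin-conjugating enzyme Ube2s, the inhibitor Fbxo5, and Espl1 (2.38 ± 0.48), the separase that cuts cohesin. In all, 15 of the 17 genes were higher in the members in 5 of 5 samples. Among the subunits of the complex the log2 ratio ran from -0.07 for Anapc4 to 0.73 ± 0.08 for Cdc27, and Pttg1, the securin that restrains separase, stood at 0.38 ± 0.09. These genes are listed after their values were seen.

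**Figure D2:**
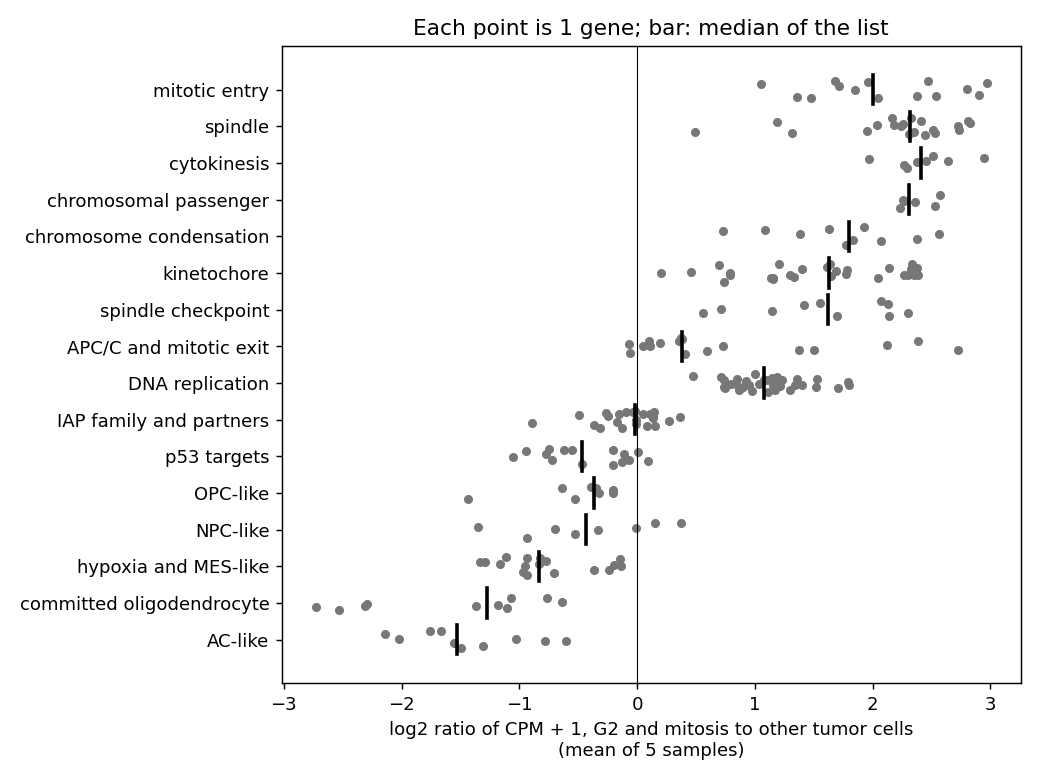
Log2 ratio of CPM + 1 in cells in G2 and mitosis to that in other tumor cells (horizontal axis, mean of 5 samples) for each gene of 16 lists (rows), with a bar at the median of a list. Division lists lie to the right, up to a median of 2.41 for cytokinesis, and the committed oligodendrocyte and AC-like lists lie to the left at -1.27 and -1.53.

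Both transcription factors of the late program differed between the cycle phases. Foxm1 was 2.04 ± 0.42 higher in members than in other tumor cells and 1.14 ± 0.11 higher than in S-phase cells. Mybl2, the B-Myb gene, was 1.36 ± 0.45 higher than in other tumor cells but fell by 0.56 ± 0.13 against S-phase cells, on the log2 scale. Cdkn1b, the p27 inhibitor of cyclin-dependent kinases, was 0.37 ± 0.08 higher in members than in other tumor cells and 0.76 ± 0.07 higher than in S-phase cells. Cdkn2c, the p18 inhibitor of Cdk4 and Cdk6, was 2.08 ± 0.31 higher than in other tumor cells, and is named after its values were seen. Cdkn1a, the p21 inhibitor and a p53 target, was lower than in the other tumor cells, with a log2 ratio of -0.94 ± 0.28. Its levels in members were 53.8, 38.0 and 24.4 CPM with vehicle and 80.2 and 36.6 CPM with Xevinapant, and the groups overlapped.

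Genes of glial differentiation were low in the members. The 10 lowest ratios included Mbp, which encodes a myelin protein (-2.30 ± 0.59). They also included the astrocyte genes Aqp4, a water channel (-2.14 ± 0.56), Mlc1 (-2.02 ± 0.49), Clu (-1.76 ± 0.48) and Gfap, the astrocyte filament (-1.67 ± 0.55). Further genes among them were Agt, angiotensinogen (-2.06 ± 0.50), Ache, acetylcholinesterase (-1.78 ± 0.22), Tcp11l2 (-1.78 ± 0.20) and Col20a1 (-1.66 ± 0.22). Of 10 committed oligodendrocyte genes, all were lower in the members in 5 of 5 samples (median -1.27), as were all 10 astrocyte-like (AC-like) genes (median -1.53). The progenitor genes moved less, with medians of -0.37 for the oligodendrocyte progenitor-like (OPC-like) list and -0.43 for the neural progenitor-like (NPC-like) list. The part in these ratios of host cells that passed the tumor limits was not tested.

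Most of this gap was shared with the S-phase cells. Against those, the medians were -0.27 for the committed oligodendrocyte list and -0.30 for the AC-like list. Olig2, used for the tumor limit, was about level at 0.05 ± 0.12, and Pdgfra, the growth factor receptor of oligodendrocyte progenitors, stood at -0.20 ± 0.26. Hypoxia and mesenchymal-like (MES-like) genes had a median of -0.83 against other tumor cells and 0.05 against S-phase cells. Vegfa, which hypoxia induces, was at 255, 258 and 210 CPM in the members of the vehicle samples and at 544, 529 and 416 CPM in their other tumor cells.

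The members varied among themselves along the S-phase axis. In each matrix they were ranked by the summed CPM of the 5 S-phase markers and cut into 4 groups of equal size. From the lowest to the highest group, the 37 replication genes summed to 2904, 3968, 4905 and 6381 CPM, and all 37 were higher in the highest group in 5 of 5 samples. Cdc6, which loads the replicative helicase, showed the largest increase among genes of at least 50 CPM in any of the 4 groups, the 5 ranking genes aside, at 2.55 ± 0.08 on the log2 scale, and Ung, a uracil-DNA glycosylase, followed at 2.46 ± 0.13. Cdt1, the partner of Cdc6 in loading, differed by 1.90 ± 0.10.

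Late genes ran the other way, with a smaller span. The median log2 difference between the highest and the lowest group was -0.47 for cytokinesis genes and -0.31 for spindle genes, and 19 of 20 spindle genes were lower in the highest group in 5 of 5 samples. Mitotic entry genes changed by a median of -0.16 and kinetochore genes by 0.02. AC-like genes were also highest where S-phase RNA was lowest, summing to 3030 CPM in the lowest group and 1613 CPM in the highest, with all 10 lower in 5 of 5 samples. The hypoxia and MES-like list fell from 3522 to 2140 CPM and 15 of its 17 genes were lower in 5 of 5 samples. Ero1l, an oxidase of the endoplasmic reticulum, went from 737 to 293 CPM.

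Depth and traces of some other cell types moved along the same ranking. Median UMIs per cell were 25809, 30621, 33200 and 35925 from the lowest to the highest group. Endothelial marker RNA summed to 46.4 CPM in the lowest group and 10.8 CPM in the highest, and dendritic cell marker RNA to 50.8 and 20.9 CPM. Macrophage and microglia markers differed less, at 73.3 and 63.4 CPM. Fibroblast and mural markers had no steady course, at 509, 200, 435 and 218 CPM from the lowest to the highest group. Among the members of a matrix, Spearman's rho of the summed CPM of the rule markers was -0.35 to -0.22 with UMIs per cell and -0.30 to -0.13 with the S-phase markers, values that share the same cells and UMI totals. The part of depth and of this RNA in the trends of the spindle, cytokinesis, AC-like and hypoxia lists was not tested.

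**Figure D3:**
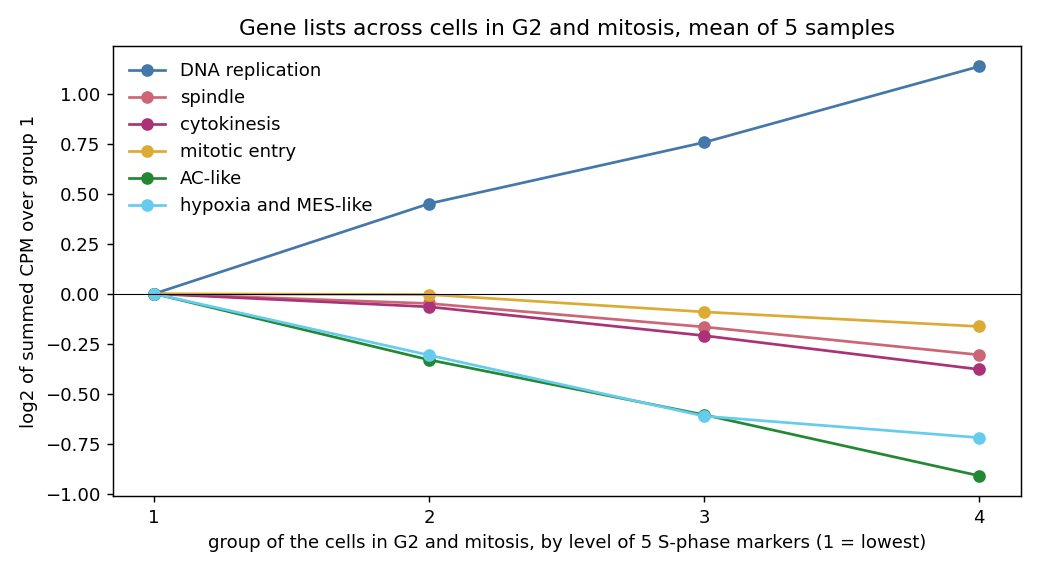
Log2 of the summed CPM of 6 gene lists relative to group 1 (vertical axis, mean of 5 samples) in 4 groups of the cells in G2 and mitosis ranked by 5 S-phase markers (horizontal axis). DNA replication genes climb from 2904 to 6381 CPM, while the spindle, cytokinesis, AC-like and hypoxia lists decline.

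The first treatment question was whether Xevinapant changed how many tumor cells were in G2 and mitosis. Members made up 25.9%, 28.9% and 32.7% of tumor cells in the 3 vehicle samples and 19.2% and 26.0% in the 2 Xevinapant samples. The groups overlapped by a narrow margin. The means were 29.2% ± 3.4 (SD, n = 3) and 22.6% ± 4.8 (SD, n = 2), a difference of -6.54 percentage points. It was -3.14 points without the Xevinapant 1 and 2 sample and -9.93 points without the Xevinapant 3 and 4 sample. The exact two-sided permutation test gave p = 0.3, where 0.1 is the smallest p that 3 against 2 samples allow.

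Depth differed between the matrices, and Xevinapant 3 and 4 had the deepest members (median 39624 and 35297 UMIs). With tumor cells thinned to 5000 UMIs and 1 UMI per marker, the 39 to 179 shallower tumor cells of each matrix were left out of the count and of the total. This choice is not the same class of cells as the members. It took in 59.6% (Xevinapant 3) to 74.4% (Xevinapant 1) of the members with 5000 or more UMIs, and 64.4% in Xevinapant 4. The shares were then 23.1%, 25.3% and 28.1% with vehicle and 17.7% and 19.3% with Xevinapant. The groups did not overlap, the difference was -6.96 points, and the exact permutation test gave p = 0.1, its smallest value. Removing the cells with the highest doublet scores (980 of the 8755 members, 588 of them in vehicle 4) gave -5.33 points, with p = 0.1 in the exact permutation test. The groups then barely parted, with the lowest vehicle sample at 25.65% and the highest Xevinapant sample at 25.62%. The exact permutation p was 0.3, with overlap, for all 5 markers, for 2 UMIs per marker and for at most 5% mitochondrial UMIs. It was 0.2 without the depth floor and without shared barcodes. S-phase cells were 18.6%, 18.0% and 18.4% of tumor cells with vehicle and 15.6% and 23.3% with Xevinapant (exact permutation p = 0.7). This share leaves out the 5502 members that also passed the S-phase limit, so it depends on the member share. It was taken on all UMIs and has no thinned value beside it.

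**Figure D4:**
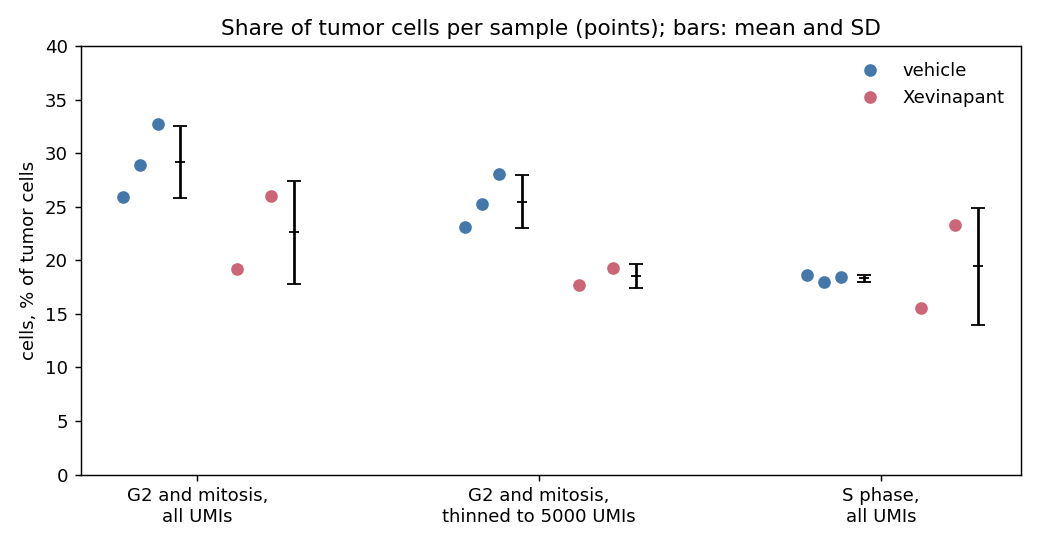
Percent of tumor cells (vertical axis) that were cells in G2 and mitosis by all UMIs, by UMIs thinned to 5000 per cell, and S-phase cells by all UMIs (horizontal axis); each point is 1 of 3 vehicle or 2 Xevinapant samples, and bars give mean and SD. With thinned UMIs and a limit of 1 UMI per marker, which chooses only part of the members, the Xevinapant samples lie at 17.7% and 19.3%. The vehicle samples then lie between 23.1% and 28.1%.

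The second question was which genes Xevinapant changed within the members. Of 13584 genes tested with edgeR's quasi-likelihood test on counts summed per sample, none had an adjusted p of 0.05 or less (percent called 0), and 968 had an unadjusted p under 0.05 (7.13%). DESeq2 called 52 genes, 26 higher and 26 lower. The median standard error of a log2 fold change was 0.18. With each matrix counted as 1 mouse edgeR called 83 genes, 33 higher and 50 lower, and 1 gene with the matrix number as a block.

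Division genes were held high in the members of both groups by the rule, so their treatment change within the members is a description. The median log2 change over the list was 0.01 for mitotic entry, -0.02 for spindle, -0.01 for cytokinesis, -0.09 for kinetochore and -0.06 for DNA replication genes, beside a median of 0.00 over all genes tested. Cdk1 was at 465, 376 and 430 CPM with vehicle and 486 and 394 CPM with Xevinapant, a log2 change of 0.01 ± 0.15 (SE; edgeR adjusted p = 0.99). Mki67 changed by -0.13 ± 0.14 (adjusted p = 0.823) and Top2a by -0.01 ± 0.15 (adjusted p = 0.997). Ccna2, cyclin A2, was the mitotic entry gene with the lowest p: its levels were 637, 554 and 586 CPM with vehicle and 450 and 488 CPM with Xevinapant, which did not overlap, and its log2 change was -0.38 ± 0.13 (adjusted p = 0.7). It is named after its values were seen.

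The IAP genes, whose proteins Xevinapant binds, showed no change past the threshold. Birc2, encoding cIAP1, stood at 36.1, 34.1 and 38.5 CPM with vehicle and 39.7 and 42.6 CPM with Xevinapant (log2 change 0.14 ± 0.13, adjusted p = 0.78). Birc3, encoding cIAP2, stood at 9.37, 7.67 and 12.1 CPM with vehicle and 10.3 and 12.7 CPM with Xevinapant (0.20 ± 0.26, adjusted p = 0.852). Xiap, a direct inhibitor of caspases, stood at 21.0, 17.1 and 26.3 CPM with vehicle and 11.4 and 17.5 CPM with Xevinapant (-0.61 ± 0.26, adjusted p = 0.702), and the groups overlapped. Birc5 changed by 0.02 ± 0.13 (adjusted p = 0.983) and Cdkn1a by 0.55 ± 0.40 (adjusted p = 0.729). Between members and other tumor cells, the 23 measured genes of the IAP family and its partners had a median log2 ratio of -0.02, and none stood at 1 or more or at -1 or less. Such ratios were rare in general: of 6047 genes of at least 50 CPM, 248 stood at 1 or more and 87 at -1 or less. The p53 target list had a median of -0.47 against the other tumor cells and of -0.08 against the S-phase cells.

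The lowest p in the members belonged to Fos, an immediate early transcription factor. Fos was at 53.7, 41.1 and 35.6 CPM with vehicle and at 185 and 153 CPM with Xevinapant, a log2 change of 1.92 ± 0.18 (edgeR adjusted p = 0.196). Its adjusted p was 9.65e-15 with DESeq2, 0.00153 with edgeR without the filter on low counts, 0.00866 with each matrix as 1 mouse and 0.0316 when the matrix number was then added as a block, and it missed the threshold under the other alternatives. Egr1 followed a like pattern, with 98.4, 90.6 and 66.1 CPM against 183 and 189 CPM (1.09 ± 0.17, adjusted p = 0.7; 0.0001 with DESeq2, 0.0433 with each matrix as 1 mouse and 0.154 with the block added). Junb stood at 24.6, 19.2 and 14.4 CPM against 51.9 and 43.0 CPM (1.25 ± 0.23, adjusted p = 0.7). In the other tumor cells Fos changed by 1.86 ± 0.22 and Egr1 by 1.06 ± 0.21, and the difference between the 2 cell classes was 0.06 ± 0.09 for Fos (adjusted p = 0.843). Lower levels with Xevinapant were seen for Mest, at 261, 320 and 292 CPM against 177 and 169 CPM (-0.80 ± 0.13, adjusted p = 0.7), and for Fabp7, a fatty acid binding protein of radial glia, at 947, 1042 and 1274 CPM against 631 and 579 CPM (-0.89 ± 0.17, adjusted p = 0.7). These genes are named after their values were seen, and pool and date cannot be told apart from treatment here.

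Macrophage and neutrophil marker RNA in the members also differed between the groups. The summed level of 11 macrophage and microglia markers was 47.8 to 67.1 CPM with vehicle and 76.9 to 90.2 CPM with Xevinapant. The summed level of 6 neutrophil markers was 1.69 to 2.66 CPM with vehicle and 5.56 to 6.11 CPM with Xevinapant. That of 5 dendritic cell markers was 15.2 to 34.8 CPM with vehicle and 32.4 to 68.7 CPM with Xevinapant, and these ranges overlapped. None of these markers was at 0 over all members. Fibroblast and mural markers summed to 933 CPM in the Xevinapant 1 and 2 sample and to 84.7 to 329 CPM in the other samples. The part of this RNA in the treatment values was not tested. With members holding no C1q UMI (5717 cells), edgeR again called 0 genes, with 906 at an unadjusted p under 0.05.

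The third question was whether the treatment change in the members differed from that in the other tumor cells. Of 14114 genes tested for this interaction with the sample as a block, edgeR called none (percent called 0), and 1708 had an unadjusted p under 0.05, of which 1169 were positive. The lowest adjusted p was 0.107, while DESeq2 called 322 genes, 285 of them positive. With each matrix counted as 1 mouse edgeR called 224 genes, and 44 genes with the matrix number as a block. A positive value means that the change with Xevinapant was less negative, or more positive, in the members.

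The lowest p belonged to Fbln1, an extracellular matrix gene, with a difference of 0.54 ± 0.05 (edgeR adjusted p = 0.107). In the other tumor cells the mitotic entry list had a median log2 change with Xevinapant of -0.58, the spindle list -0.57 and the DNA replication list -0.58, beside medians of 0.01, -0.02 and -0.06 in the members. The median difference was 0.63 for mitotic entry, 0.61 for spindle and 0.55 for DNA replication genes, beside 0.01 over all genes tested. The rule cut both classes on mitotic and S-phase markers, so these differences over cell cycle genes are a description, and the part of the split in them was not tested. Rrm2, a subunit of ribonucleotide reductase, was at 178, 162 and 157 CPM with vehicle and 74.3 and 99.9 CPM with Xevinapant in the other tumor cells, and at 562, 434 and 398 CPM against 384 and 462 CPM in the members. The difference for Rrm2, named after its values were seen, was 0.81 ± 0.09.

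The cut between the classes used cycle genes and UMI limits, so the other tumor cells hold whatever cycling cells fell short of the limits. Their median UMIs were 10810 to 12227 with vehicle and 11912 to 16351 with Xevinapant. When the cells were split after thinning to 5000 UMIs, the median differences were 0.46 for mitotic entry, 0.47 for spindle and 0.36 for replication genes, with 0 genes called by edgeR and 1059 at an unadjusted p under 0.05. Without the Xevinapant 3 and 4 sample, the median differences were 0.89 for mitotic entry, 0.82 for spindle and 0.61 for replication genes. Without the Xevinapant 1 and 2 sample, they were 0.38, 0.35 and 0.47. Both fits leave 1 Xevinapant sample, so their spread comes from the vehicle samples and the lone sample is assumed to vary like them. Endothelial markers had a median difference of 0.84 and fibroblast and mural markers one of -1.05, and the part of this RNA was not tested.

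**Figure D5:**
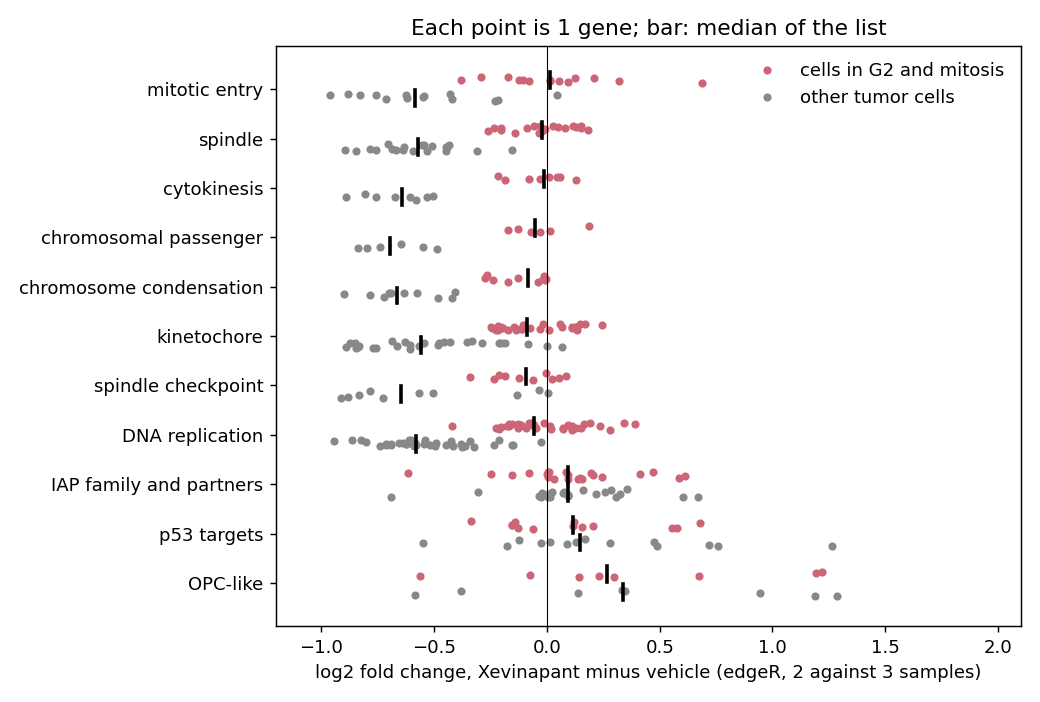
Log2 fold change of each gene with Xevinapant against vehicle (horizontal axis, edgeR, 2 against 3 samples) in cells in G2 and mitosis and in other tumor cells, for 11 lists (rows); bars are list medians. Division and replication genes sit near 0 in cells in G2 and mitosis and mostly below 0 in the other tumor cells, with medians of -0.58 for mitotic entry and replication; no gene passed the adjusted threshold in either class.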

How the data were processed

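Single cells of 2 groups of tumors were profiled with a probe-based 10x assay. The authors deposited UMI counts per gene and barcode in 8 matrices (19059 genes, mm10, not normalized). The labels name Cell Ranger 3.0 and Seurat 4.0, while the file headers name Cell Ranger 7.1.0. Matrices held 71835789 to 300206053 UMIs. Barcodes were kept with 200 or more genes, 10% or less mitochondrial UMIs and a ratio of log10 genes to log10 UMIs of 0.8 or more. The limits removed no doublets; Scrublet in scanpy 1.11.5 scored them for an alternative. A total of 1413 full barcodes stood in a matrix of both groups, 171 of the copies were members, and the copies differed by a median of 167-fold in UMIs. Counts were summed over the cells of a sample and tested with edgeR 4.0.16 (TMM, filterByExpr, quasi-likelihood, Benjamini-Hochberg at 0.05; exact permutation for shares) in R 4.3.3, and DESeq2 1.42.0 was an alternative. The methods speak of samples of individual mice, but no source used here ties a matrix to an animal, so p-values may measure technical spread. Scripts were tested on simulated data. The members, lists and the joining of matrices were chosen with earlier results of these data known. Named genes were the 20 highest and 10 lowest ratios among genes of at least 50 CPM, list members past a threshold, and Birc2, Birc3, Xiap, Birc5, Cdkn1a, Cdk1, Mki67 and Top2a; Ccnb1 and 3 other list genes were not analysed here, and 1 gene that the rule named is not reported here. Members against other cells was not tested, since the rule used that contrast.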

Additional observations from a re-analysis of the deposited data

How the results depend on the processing

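The share of tumor cells in G2 and mitosis was lower with Xevinapant under every alternative run. The difference was -9.93 to -3.14 points when 1 sample was left out and -5.73 points with each matrix as 1 mouse (exact permutation p = 0.114). With the unchanged limit of 3 UMIs after thinning, the mean share was only 3.45% with vehicle and 2.54% with Xevinapant. That is a difference of -0.91 points (exact permutation p = 0.1). No adjusted call in the members appeared without TMM, with thinned sums, without doublets, C1q UMIs or shared barcodes, with cells chosen on thinned counts, or with any sample left out (0 to 0 calls). The count was 1 without the low-count filter, 83 with each matrix as 1 mouse and 52 with DESeq2. For the difference between cell classes the count was 234 without the filter, 224 with each matrix as 1 mouse and 322 with DESeq2, and 0 to 98 with 1 sample left out. The causes were not tested. List medians of this difference stayed positive for the 6 division and replication lists recomputed. The median log2 ratio of members to other tumor cells was 1.08 for replication genes and 0.65 with cells split on thinned counts. Choosing cells on thinned counts, shared barcodes and the block were alternatives chosen after seeing the data.

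Small changes crossed 0. Birc5 turned to -0.00067 without the filter, -0.0061 with each matrix as 1 mouse (-0.0087 with the block), -0.017 without doublets and -0.0075 without C1q UMIs, and ranged from -0.088 to 0.12 with 1 sample left out. Cdk1 turned to -0.0036 without the filter, -0.012 with each matrix as 1 mouse (-0.018 with the block) and -0.028 without doublets, with a range of -0.16 to 0.17. Top2a turned to 0.035 without TMM, 0.021 with all 5 markers, 0.0079 without shared barcodes and 0.010 with cells chosen on thinned counts, with a range of -0.15 to 0.13. With 1 sample left out Cdkn1a ranged from -0.13 to 1.03, Birc2 from 0.10 to 0.19, Birc3 from 0.051 to 0.39 and Xiap from -0.95 to -0.35, none past the threshold.

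Matrices of the 2 groups share numbers, and joined samples hold several of them, so the block was fitted with each matrix as 1 mouse. With the replicate block edgeR called 1 gene in the members (Fos, adjusted p = 0.0316) and 44 for the difference between cell classes. Matrices of the same number did not deviate together in all 4 pairs (correlation of deviations -0.21 to 0.12 over 13081 genes). They share a probe barcode and 178 to 528 full barcodes, while no source names a shared animal or day.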

Other observations

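The members of the vehicle 2 sample were low in interferon response genes. Their 18 genes summed to 327 CPM, against 1195 and 1133 CPM in the other vehicle samples and 842 and 1244 CPM in the Xevinapant samples. Isg15, a ubiquitin-like protein that interferon induces, was at 19.8 CPM in vehicle 2 and at 55.9 to 107 CPM elsewhere. H2-K1, a class I antigen presentation gene, was at 21.8 CPM in vehicle 2 and at 95.0 to 183 CPM elsewhere. The same sample was low in the S-phase cells (336 CPM) and the other tumor cells (369 CPM), so it was low in all 3 cell classes. Within samples the list was also lower in the members than in the other tumor cells, with a median log2 ratio of -0.21. Against the S-phase cells the median was -0.09, so most of this gap was shared with them.

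Sox10, an oligodendrocyte lineage factor, was at 770 CPM in the members of the Xevinapant 1 and 2 sample and at 146 to 301 CPM in those of the other samples. Among G1 regulators and inhibitors of cyclin-dependent kinases, 2 of 14 genes were higher by 1 or more in the members, Cdkn2c and Rbl1 (1.34 ± 0.33), a member of the retinoblastoma family. NF-kB targets had a median log2 ratio of -0.01 between members and other tumor cells and a median change with Xevinapant of 0.39 in the members, with 0 of 15 tested genes past the threshold, beside 0.36 in the other tumor cells and 0.00 over all genes tested in the members. The summed levels of macrophage, neutrophil and dendritic cell markers in the members were also higher on average with Xevinapant, and their part in this value was not tested. Lymphocyte markers summed to 1.26 to 2.92 CPM in the members, endothelial markers to 16.1 to 26.2 CPM and erythrocyte markers to 41.8 to 220 CPM. These values were chosen for mention after they were seen.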
